A study of Rattus norvegicus with 4 samples.

Results

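The splicing factor and hnRNP genes described here are the rat genes whose symbols begin with Snrp, Lsm and a digit, Srsf, Hnrnp, Sf3a, Sf3b or Prpf and whose mean level over the 4 cultures was at least 1 TPM (a relative abundance per unit of transcript length that sums to the same total in every sample). The symbol rule matched 79 genes, and 76 of them passed the level threshold, among 11960 genes of 23360 that passed it in the whole dataset. The 76 genes comprised 11 Snrp, 13 Lsm, 11 Srsf, 19 Hnrnp, 9 Sf3 and 13 Prpf genes. The other 3 matching symbols, Snrpg, Srsf8 and Snrpd2l, were listed at 0 in all 4 samples. The member just above the threshold was Srsf12, with a mean of 3.23 TPM, and no member lay between it and the genes listed at 0.

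The samples were cultures of INS-1 832/3 cells, an insulin-secreting line from a rat insulinoma that carries the human insulin gene and is kept under Geneticin selection. In the 2D group, 2 cultures were grown as a standard monolayer. In the 3D group, 2 cultures were bioprinted in GelXA LAMININK 411, a hydrogel containing a laminin. All 4 were harvested for polyA RNA after 5 days at passage 3, and the labels describe the 2 cultures of each group as biological replicates of this single line. All 12 beta cell markers examined, insulin genes and Pdx1 among them, had a mean of at least 1 TPM. Of the markers of other cell types, Gcg, Kdr and Ctrb1 reached that level, and none of the 5 fibroblast or 5 leukocyte markers in the files did. The summed TPM of the alpha, delta and PP cell list, where only Gcg reached 1 TPM, was 42.2 and 74.4 in the 2D cultures and 125 and 156 in the 3D cultures. Its part in the results below was not tested. Fewer cells of a type and less RNA per cell cannot be told apart in bulk RNA.

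Introns are removed from pre-mRNA by the spliceosome, which is assembled from small nuclear ribonucleoproteins (snRNPs). The Sm proteins, encoded by Snrp genes, form a ring around the U1, U2, U4 and U5 small nuclear RNAs, and LSm proteins form a related ring on U6 RNA and another that acts in mRNA decay. The SF3a and SF3b complexes belong to the U2 snRNP and recognise the branch point, and most PRPF proteins belong to the U4/U6.U5 tri-snRNP or to complexes that join during catalytic activation. SR proteins, encoded by Srsf genes, bind exonic enhancers and recruit the machinery, whereas hnRNPs bind nascent RNA and often repress the use of nearby splice sites. In beta cells, alternative splicing affects transcripts of secretion and survival.

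Promoter windows are given for the 2 higher and the 2 lower genes with the smallest p, to show the sequence at the start of genes that differed between 2D and 3D culture. The windows run from 250 bases before to 50 bases after the annotated start in RefSeq (build GRCr8) and are written in the direction of the gene. Sf3b1 (chr9:64026670-64026969, minus strand) and Srsf5 (chr6:106336506-106336805, plus strand) were higher in 3D culture. Snrpa1 (chr1:129051800-129052099, plus strand) and Lsm3 (chr4:125577935-125578234, plus strand) were lower. Capitals mark matches to 4 motifs searched on both strands, an E-box (CACGTG), an ETS motif (CCGGAAG), a YY1 motif (GCCATNTTG) and the core of the NRF1 motif (TGCGCA).
Sf3b1: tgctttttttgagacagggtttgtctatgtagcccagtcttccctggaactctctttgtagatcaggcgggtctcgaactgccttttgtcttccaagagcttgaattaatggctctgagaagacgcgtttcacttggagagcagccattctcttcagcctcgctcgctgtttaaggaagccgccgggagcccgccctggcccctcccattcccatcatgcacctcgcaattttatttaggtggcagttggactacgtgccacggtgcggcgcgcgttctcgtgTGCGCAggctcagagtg
Srsf5: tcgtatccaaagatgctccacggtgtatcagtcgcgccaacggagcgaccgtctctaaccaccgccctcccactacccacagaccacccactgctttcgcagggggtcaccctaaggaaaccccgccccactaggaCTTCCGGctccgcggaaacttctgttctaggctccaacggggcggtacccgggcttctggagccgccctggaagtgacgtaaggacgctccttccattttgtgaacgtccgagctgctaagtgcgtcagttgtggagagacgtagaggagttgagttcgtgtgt
Snrpa1: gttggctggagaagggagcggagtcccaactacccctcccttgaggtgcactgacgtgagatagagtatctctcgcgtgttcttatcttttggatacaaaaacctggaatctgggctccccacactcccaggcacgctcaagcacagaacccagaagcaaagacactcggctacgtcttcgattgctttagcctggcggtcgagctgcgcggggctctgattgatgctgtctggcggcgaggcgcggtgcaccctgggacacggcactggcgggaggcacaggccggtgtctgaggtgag
Lsm3: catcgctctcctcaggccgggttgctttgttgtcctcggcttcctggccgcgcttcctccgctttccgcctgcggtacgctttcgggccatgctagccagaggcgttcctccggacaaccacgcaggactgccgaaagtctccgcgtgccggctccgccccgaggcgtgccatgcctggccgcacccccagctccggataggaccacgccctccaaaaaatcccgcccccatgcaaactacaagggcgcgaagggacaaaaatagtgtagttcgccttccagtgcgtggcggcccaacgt
The Sf3b1 window held 1 NRF1 core match at position 284, and the Srsf5 window held 1 ETS match, read on the other strand, at position 137. None of the 4 motifs was found in the Snrpa1 or Lsm3 window. A window was found for 71 of the 76 members. The NRF1 core occurred in 29.6% of these 71 windows, in 14.5% of the 8792 windows of all genes tested and in 7.68% of all 27457 windows. The ETS motif occurred in 26.8%, 19.0% and 9.22% of the same sets, the YY1 motif in 11.3%, 5.85% and 3.06%, and the E-box in 12.7%, 9.79% and 6.65%. Windows with the NRF1 core made up 4 of the 10 members that were higher in 3D culture, 10 of the 26 lower members with a window and 7 of the 35 that did not pass the test. These matches describe letters in the window and were not tested for binding.

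Expression was compared between 3D and 2D culture with limma's moderated test on log2(scaled TPM + 1), where scaled TPM are TPM divided by a factor that aligns the bulk of genes between samples. Log2 fold changes on this scale are 3D minus 2D and slightly understate the change of genes at low levels. Adjustment of p followed Benjamini and Hochberg across all 11960 genes, and a gene was said to be higher or lower when the adjusted p was below 0.05. Over all genes tested, 38.0% passed, 18.5% higher and 19.5% lower in 3D culture. Of the 76 splicing genes, 10 were higher (13.2%), 28 were lower (36.8%) and 38 did not pass the test. Among all genes with a mean of at least 10 TPM, which is where all but a few of the splicing genes lie, 17.5% were higher and 25.4% were lower. Both 3D cultures lay on one side of both 2D cultures in 64 of the 76 genes, against 75.5% of all genes tested. The median log2 fold change was -0.11 over the 76 genes and -0.003 over all genes, and 51 of the 76 genes were below 0, against 50.5% of all genes.

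The smallest two-sided p of an exact permutation test with 2 cultures in each group is 0.333, and the calls therefore rest on a variance estimate that limma moderates over all genes. They also rest on both 3D cultures. When either 3D culture was left out, most calls were lost, among the 76 genes and over all genes alike. Leaving out replicate 2 of the 2D group removed part of the calls, again also over all genes. All 38 called genes kept their direction in each of these fits. This had to follow, because the 2D and 3D values of each of these genes did not overlap.

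**Figure D1:**
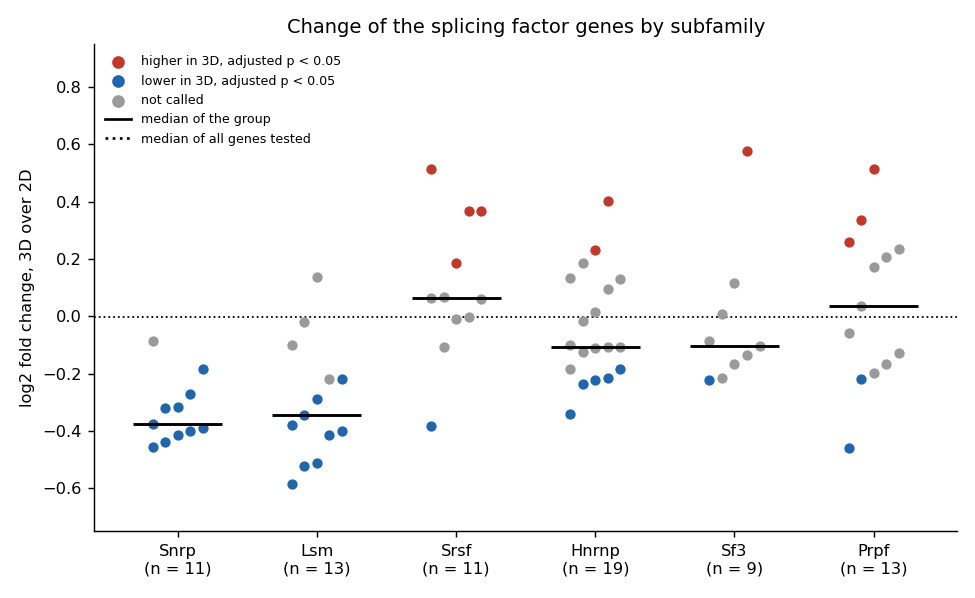
Log2 fold change (3D over 2D, vertical axis) of each of the 76 splicing genes, grouped by subfamily along the horizontal axis, with 1 point per gene coloured by the limma call, a solid bar at the subfamily median and a dotted line at the median of all genes tested. All 11 Snrp points and 12 of 13 Lsm points lie below 0, whereas the Srsf, Hnrnp, Sf3 and Prpf points lie on both sides.

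The snRNP core genes were lower in 3D culture. Of 11 Snrp genes, 10 were lower (90.9%, against 19.5% of all genes) and 0 were higher, also at an unadjusted p below 0.05, with a median log2 fold change of -0.38. This held for 6 of the 7 tested genes of the Sm ring and for all 4 genes of proteins particular to U1 or U2, namely Snrpa and Snrpc of U1 and Snrpa1 and Snrpb2 of U2. The largest fall was that of Snrpa1, a U2 snRNP protein, with 79.3 and 80.9 scaled TPM in the 2D cultures and 57.8 and 58.5 in the 3D cultures. The log2 fold change of Snrpa1 was -0.46 (standard error, SE, 0.052, limma adjusted p = 0.0051). Snrpe, an Sm protein and the most abundant member of the subfamily, had 489 and 507 scaled TPM in 2D and 394 and 366 in 3D culture. Its level fell by 0.39 on the log2 scale (SE 0.064, limma adjusted p = 0.00997). Snrpd2, another ring protein, had 207 and 229 scaled TPM in 2D and 164 and 156 in 3D culture, and the log2 fold change was -0.44 (SE 0.070, limma adjusted p = 0.0095). The replicates of Snrpd2 lay further apart in 2D than in 3D culture, without overlap of the groups. The other called Snrp genes had log2 fold changes from -0.42 for Snrpf to -0.19 for Snrpb.

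Snrpb and Snrpn encode near-identical Sm proteins, so short reads may be divided uncertainly between them. Snrpb had 257 and 264 scaled TPM in 2D and 229 and 229 in 3D culture, and the log2 fold change was -0.19 (SE 0.052, limma adjusted p = 0.040). Snrpn had 230 and 241 scaled TPM in 2D and 219 and 224 in 3D culture, with a log2 fold change of -0.09 (95% interval -0.22 to 0.05, adjusted p = 0.26 in limma). Snrpn was the only Snrp gene that did not pass the test. Within a culture, the ratio of Snrpn to Snrpb was 0.895 and 0.914 in 2D and 0.958 and 0.982 in 3D culture. The ratio was higher in both 3D cultures, at the smallest p that the exact permutation test allows (p = 0.333, two-sided).

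The Lsm genes were also lower. Of 13, 9 were lower (69.2%, against 19.5% of all genes) and 0 were higher (0 also at an unadjusted p below 0.05). The median log2 fold change was -0.34. Among Lsm1 to Lsm8, the genes of the heptameric rings, 6 of 8 were lower, and among Lsm10 to Lsm14b, of which Lsm10 and Lsm11 belong to the U7 snRNP of histone mRNA processing, 3 of 5 were lower. Lsm3 had the largest fall of all 76 genes, from 86.6 and 97.5 scaled TPM in 2D to 61.8 and 60.0 in 3D culture. Its log2 fold change was -0.59 (SE 0.073, limma adjusted p = 0.0058), a decrease to 0.666 of the 2D level. Lsm4, the most abundant Lsm gene, had 144 and 169 scaled TPM in 2D and 106 and 110 in 3D culture, and the log2 fold change was -0.52 (SE 0.086, limma adjusted p = 0.010). Lsm2 had 82.9 and 86.5 scaled TPM in 2D and 62.4 and 65.4 in 3D culture (log2 fold change -0.40, adjusted p = 0.0075 in limma). For each of these ring genes both 3D cultures were below both 2D cultures, and the groups did not overlap in 75.5% of all genes tested. Lsm7 had 122 and 124 scaled TPM in 2D and 87.4 and 96.5 in 3D culture (log2 fold change -0.41, adjusted p = 0.0096 in limma). Lsm6 did not follow, with 7.12 and 7.73 scaled TPM in 2D and 8.79 and 7.76 in 3D culture. Its log2 fold change was 0.14 (95% interval -0.09 to 0.37, adjusted p = 0.27 in limma), and its level was the lowest of Lsm1 to Lsm8. Over the 15 tested genes of the Sm ring and of Lsm1 to Lsm8, 12 were lower, 0 were higher and the median was -0.39.

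**Figure D2:**
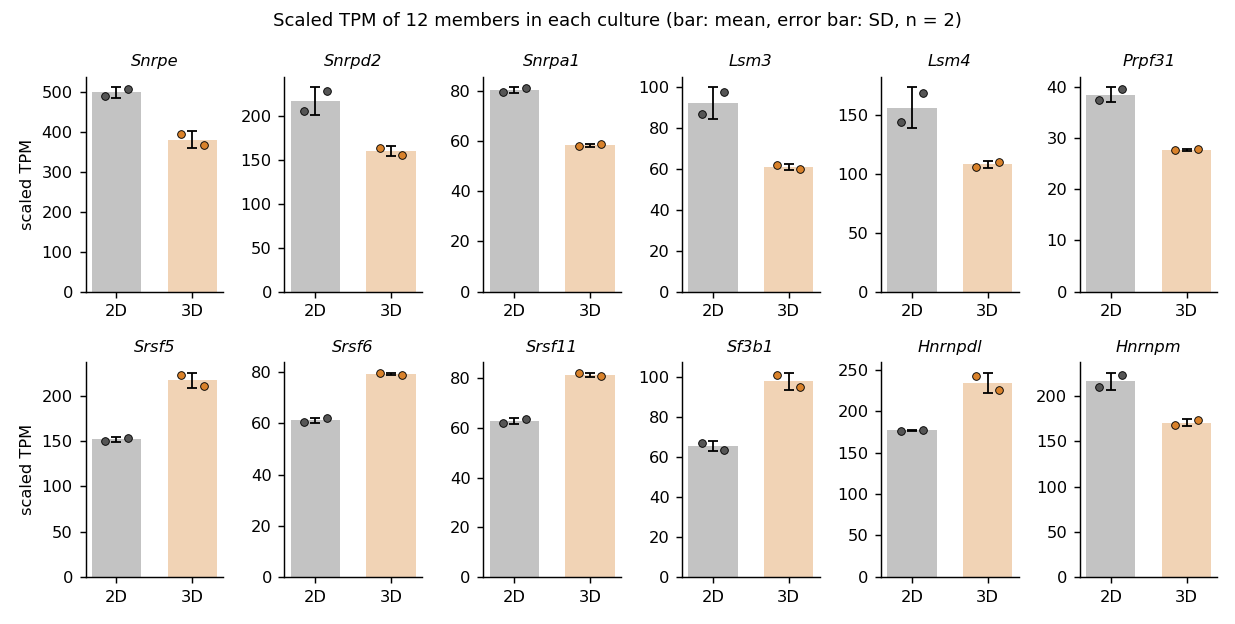
Scaled TPM (vertical axes, starting at 0) of 12 members in 2D and 3D culture, with points for the cultures, bars for the mean and error bars for the SD (n = 2 per group). Snrpe, Snrpd2, Snrpa1, Lsm3, Lsm4, Prpf31 and Hnrnpm are lower in both 3D cultures, and Srsf5, Srsf6, Srsf11, Sf3b1 and Hnrnpdl are higher.

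The SR protein genes that passed the test were mostly higher. Of 11 Srsf genes, 4 were higher (36.4%, against 18.5% of all genes) and 1 was lower (9.09%), with a median log2 fold change of 0.06. Srsf5 had 150 and 154 scaled TPM in 2D and 223 and 211 in 3D culture. Its level was 1.43 times that in 2D culture (log2 fold change 0.51, SE 0.057, limma adjusted p = 0.0049). Srsf6 had 60.5 and 61.9 scaled TPM in 2D and 79.6 and 78.9 in 3D culture, and the log2 fold change was 0.37 (SE 0.052, limma adjusted p = 0.0074). Srsf11, a more distant SR family member, had 61.9 and 63.7 scaled TPM in 2D and 81.9 and 80.7 in 3D culture (log2 fold change 0.37, adjusted p = 0.0075 in limma). Srsf5, Srsf6 and Srsf11 were named for the smallest p of the subfamily, a choice that favours genes whose replicates differ little. Srsf2 was higher close to the threshold, with 197 and 204 scaled TPM in 2D and 234 and 223 in 3D culture (log2 fold change 0.19, adjusted p = 0.048 in limma). Srsf9 went the other way, with 127 and 139 scaled TPM in 2D and 103 and 101 in 3D culture (log2 fold change -0.38, adjusted p = 0.011 in limma). The most abundant, Srsf3, had 228 and 243 scaled TPM in 2D and 223 and 213 in 3D culture, and its log2 fold change of -0.11 did not pass the test (95% interval -0.26 to 0.05, adjusted p = 0.21 in limma). Srsf1, the founding SR protein, had a log2 fold change of 0.06 (95% interval -0.07 to 0.19). Srsf12, the least expressed of all 76 genes, had 3.44 and 2.81 scaled TPM in 2D and 3.12 and 3.505 in 3D culture, and the groups overlapped.

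The hnRNP genes were the most abundant subfamily. Of 19, 2 were higher (10.5%), 5 were lower (26.3%) and 12 did not pass the test, against 17.5% and 25.4% of all genes with a mean of at least 10 TPM, with a median log2 fold change of -0.11. Hnrnpdl, a relative of Hnrnpd, had 177 scaled TPM in each of the 2D cultures and 243 and 225 in the 3D cultures, and the log2 fold change was 0.40 (SE 0.060, limma adjusted p = 0.0081). Hnrnph2, which binds G-rich elements, had 134 and 131 scaled TPM in 2D and 158 and 154 in 3D culture (log2 fold change 0.23, adjusted p = 0.022 in limma). The largest fall was that of Hnrnpm, with 210 and 223 scaled TPM in 2D and 168 and 174 in 3D culture (log2 fold change -0.34, SE 0.059, limma adjusted p = 0.011). Both 3D cultures were below both 2D cultures, and the groups did not overlap in 75.5% of all genes tested. Hnrnpa2b1, the most abundant of all 76 genes, had 1209 and 1265 scaled TPM in 2D and 1069 and 1034 in 3D culture (log2 fold change -0.23, adjusted p = 0.035 in limma). Hnrnpl, Hnrnpf and Hnrnpr were lower by similar amounts, with log2 fold changes of -0.22, -0.21 and -0.18. With only the most abundant transcript counted, Hnrnpl and Hnrnpf no longer passed the test, at -0.02 and -0.10. The count of lower hnRNP genes was 1 without the intensity trend of limma and 2 with no expression filter, and the count of higher genes was 5 without scaling. Over all genes, 4202 of 11960, 3588 of 16749 and 4070 of 11960 passed in these fits, in either direction. Hnrnpa1, the second most abundant, had a log2 fold change of 0.13 (95% interval -0.05 to 0.32), and Hnrnpc and Hnrnpu had overlapping groups.

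The SF3 genes were led by Sf3b1, the branch point binding subunit of the U2 snRNP, which had the largest rise of all 76 genes. Its level was 67.2 and 63.6 scaled TPM in 2D and 101 and 94.99 in 3D culture. This was a rise to 1.49 times the 2D level (log2 fold change 0.58, SE 0.062, limma adjusted p = 0.0047). None of the other 8 SF3 genes was higher (0 also at an unadjusted p below 0.05). Of all 9, 1 was higher and 1 was lower (11.1% each), below the shares over all genes (18.5% and 19.5%). Sf3b2 had 122 and 128 scaled TPM in 2D and 108 and 107 in 3D culture and was lower (log2 fold change -0.22, adjusted p = 0.030 in limma). Sf3a2 had 47.9 and 51.4 scaled TPM in 2D and 44.4 and 40.9 in 3D culture, and the log2 fold change of -0.21 missed the threshold (adjusted p = 0.058 in limma). Sf3b6, the most abundant of the 9, had 157 and 191 scaled TPM in 2D and 157 and 158 in 3D culture, and the groups overlapped. Without replicate 1 of the 2D group, Sf3b6 was lower (log2 fold change -0.28, limma adjusted p = 0.024). The remaining 5, Sf3a1, Sf3a3, Sf3b3, Sf3b4 and Sf3b5, had log2 fold changes from -0.17 to 0.11 and did not pass the test.

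Among the 13 Prpf genes, 3 were higher (23.1%) and 2 were lower (15.4%), near the shares over all genes (18.5% and 19.5%), with a median log2 fold change of 0.04. Prpf39, a U1-associated factor, had 12.9 and 10.6 scaled TPM in 2D and 17.1 and 17.1 in 3D culture, and the log2 fold change was 0.51 (SE 0.10, limma adjusted p = 0.016). Prpf8, the large scaffold protein of the catalytic core, had 93.7 and 85.2 scaled TPM in 2D and 106 and 108 in 3D culture (log2 fold change 0.26, adjusted p = 0.030 in limma). With only the most abundant transcript of each gene counted, the log2 fold change of Prpf8 was 0.03. Prpf4b, a kinase of the tri-snRNP, was the third gene that was higher (log2 fold change 0.34, adjusted p = 0.032 in limma). Prpf31, which joins U4/U6 to U5, was lower, with 37.5 and 39.5 scaled TPM in 2D and 27.6 and 27.9 in 3D culture (log2 fold change -0.46, SE 0.059, limma adjusted p = 0.0061). Prpf38a, a factor of spliceosome activation, had 37.4 and 38.6 scaled TPM in 2D and 32.2 and 32.8 in 3D culture (log2 fold change -0.22, adjusted p = 0.032 in limma). Prpf19, the ubiquitin ligase of the activated spliceosome and the most abundant of the 13, had 606 and 629 scaled TPM in 2D and 618 and 570 in 3D culture, and the groups overlapped.

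The subfamily sums show the same contrast on the scale of total transcript abundance. The summed scaled TPM of the Snrp genes was 2221 and 2403 in 2D and 1868 and 1820 in 3D culture, a ratio of 0.798. That of the Lsm genes was 867 and 926 in 2D and 669 and 684 in 3D culture, a ratio of 0.755. The Srsf sum was 1212 and 1236 in 2D and 1338 and 1297 in 3D culture, a ratio of 1.08. In each of these sums both 3D cultures lay on one side of both 2D cultures, at the smallest p that the exact permutation test allows (p = 0.333). The Hnrnp sum overlapped between groups (5891 and 6137 in 2D, 5946 and 5698 in 3D culture, ratio 0.968, exact permutation p = 0.667), as did the Prpf sum (1032 and 1043 in 2D, 1049 and 1004 in 3D culture, ratio 0.989, exact permutation p = 1, above 1 without scaling). The Sf3 sum was 781 and 832 in 2D and 778 and 772 in 3D culture, a ratio of 0.960, and was also without overlap (exact permutation p = 0.333), by a narrow margin.

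Ratios within a culture do not depend on the scaling factors. The Snrp sum divided by the Srsf sum was 1.83 and 1.94 in 2D and 1.40 and 1.40 in 3D culture. The Lsm sum divided by the Srsf sum was 0.715 and 0.7498 in 2D and 0.4999 and 0.528 in 3D culture. Each ratio was lower in both 3D cultures (exact permutation p = 0.333, two-sided, the smallest possible). This follows from the lower Snrp and Lsm sums and the higher Srsf sum given above, and is not separate evidence. Of the 24 Snrp and Lsm genes, 19 were lower and 0 were higher, whereas of the 52 genes of the other 4 subfamilies 9 were lower (17.3%) and 10 were higher (19.2%), near the shares over all genes. The medians were -0.36 and -0.01 on the log2 scale.

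**Figure D3:**
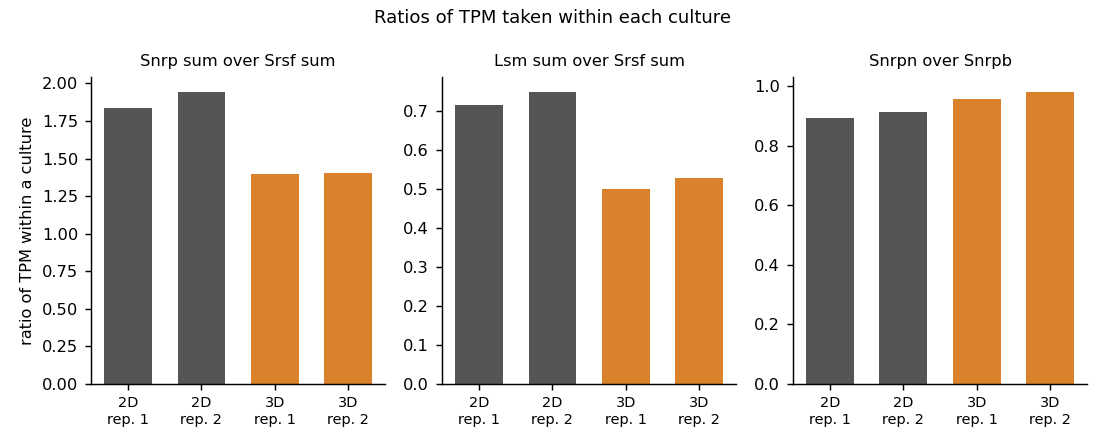
Ratios of TPM within each of the 4 cultures (vertical axes, starting at 0), for the Snrp sum over the Srsf sum, the Lsm sum over the Srsf sum, and Snrpn over Snrpb, with 1 bar per culture. The first ratio is 1.83 and 1.94 in 2D and 1.40 in both 3D cultures, and the third is the only one that is higher in 3D culture.

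Transcript levels were tested in the same way for 105 transcripts of the members, among 15020 transcripts in all. Over all transcripts 23.1% passed, 11.4% higher and 11.7% lower in 3D culture, and of the 105, 12 were higher and 29 were lower. Short single-end reads are divided among overlapping transcripts by an estimate, so the shares are less certain than the gene totals. All calls among the 105 were lost when replicate 2 of the 2D group or either 3D culture was left out. Part of the lower calls was lost without replicate 1 of the 2D group. No share over all transcripts is set beside these losses, so they are not read as particular to the members.

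Of the 21 members with 2 or more tested transcripts, Hnrnpd was the only one with 1 transcript higher and another lower. Hnrnpd encodes AUF1, which binds AU-rich elements and occurs in several splice forms. Transcript ENSRNOT00000047840.5 had 21.7 and 29.3 scaled TPM in 2D and 65.3 and 65.9 in 3D culture, and the log2 fold change was 1.35 (SE 0.15, limma adjusted p = 0.017). Its share of the gene's TPM was 8.25% and 10.6% in 2D and 25.6% and 27.4% in 3D culture. The 2 other transcripts were lower. ENSRNOT00000003158.6 had 134 and 143 scaled TPM in 2D and 110 and 97.5 in 3D culture (log2 fold change -0.42, adjusted p = 0.031 in limma). ENSRNOT00000003173.7 had 107 and 105 scaled TPM in 2D and 79.8 and 77.5 in 3D culture (log2 fold change -0.43, adjusted p = 0.017 in limma). The total of Hnrnpd did not pass the test, with 263 and 278 scaled TPM in 2D and 255 and 241 in 3D culture (log2 fold change -0.12, 95% interval -0.28 to 0.03, adjusted p = 0.16 in limma).

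Other transcripts, chosen after their values were seen, are given for 3 genes, of which Srsf3 did not pass the test in total, Hnrnpf was lower and Hnrnpdl was higher. Srsf3 transcript ENSRNOT00000092645.1 had 15.4 and 14.7 scaled TPM in 2D and 23.6 and 23.0 in 3D culture (log2 fold change 0.60, limma adjusted p = 0.017), and its share was 6.75% and 6.06% in 2D and 10.6% and 10.8% in 3D culture. Hnrnpf transcript ENSRNOT00000083843.1 had 39.9 and 58.8 scaled TPM in 2D and 18.4 and 19.3 in 3D culture (log2 fold change -1.32, adjusted p = 0.021 in limma). Its replicates lay further apart in 2D than in 3D culture. Hnrnpdl had both of its transcripts higher, with log2 fold changes of 0.33 and 0.54.

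**Figure D4:**
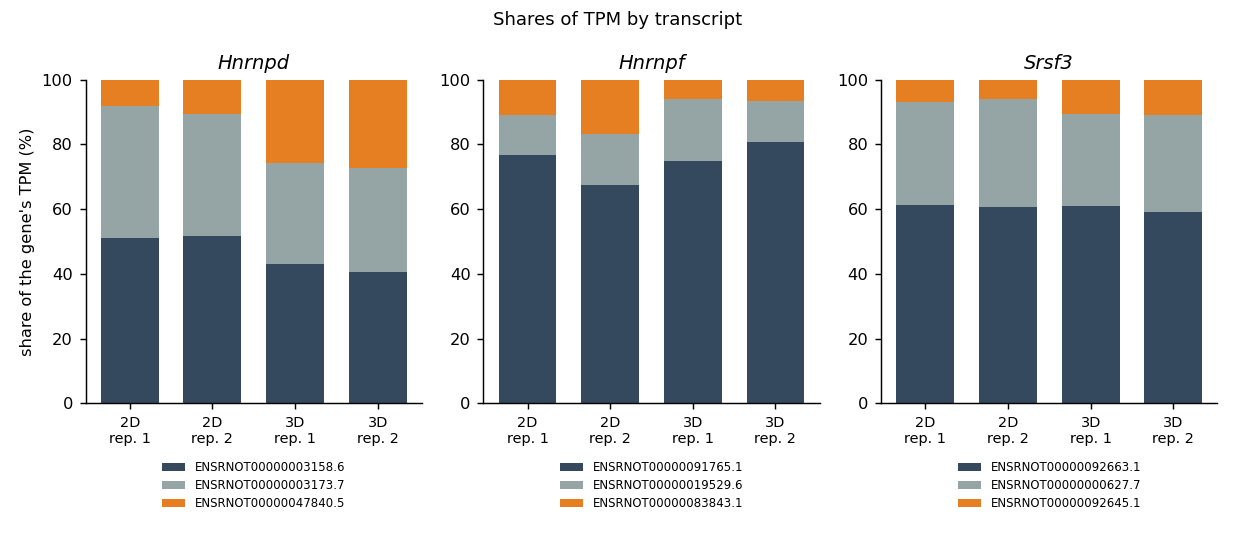
Share of each gene's TPM (%, vertical axis) taken by its transcripts in each of the 4 cultures, for Hnrnpd, Hnrnpf and Srsf3, with 1 stacked bar per culture and 1 colour per transcript. The Hnrnpd transcript ENSRNOT00000047840.5 takes 8.25% and 10.6% in the 2D cultures and 25.6% and 27.4% in the 3D cultures.

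Splicing genes outside the symbol rule were read from 5 lists. Of the 184 tested, 35 were higher (19.0%) and 44 were lower (23.9%) in 3D culture, near the shares over all genes (18.5% and 19.5%, or 17.5% and 25.4% at a mean of at least 10 TPM), with a median log2 fold change of -0.02. Most of these calls were lost when either 3D culture was left out, as were most calls over all genes. The SMN complex loads the Sm ring onto small nuclear RNA. Of its 15 genes and those of Sm assembly, 4 were lower (26.7%, Gemin6, Wdr77, Gemin7 and Clns1a), 0 were higher (0 also at an unadjusted p below 0.05) and the median was -0.15. The share of lower genes was near the 25.4% of all genes with a mean of at least 10 TPM. Gemin6 had 20.2 and 20.9 scaled TPM in 2D and 14.96 and 15.6 in 3D culture (log2 fold change -0.40, adjusted p = 0.0093 in limma). Wdr77, a partner of the methylase Prmt5 that modifies Sm proteins, had 27.0 and 27.3 scaled TPM in 2D and 18.4 and 20.9 in 3D culture (log2 fold change -0.45, adjusted p = 0.011 in limma). Both genes were lower in both 3D cultures, and the groups did not overlap in 75.5% of all genes tested. Of 62 other snRNP and core spliceosome genes, 19 were lower (30.6%) and 5 were higher (8.06%), with a median of -0.13. The share of lower genes was not far from the same 25.4%, whereas the share of higher genes was below the corresponding 17.5%. Ppih, a cyclophilin of the tri-snRNP, had 61.2 and 67.5 scaled TPM in 2D and 39.2 and 41.6 in 3D culture (log2 fold change -0.66, adjusted p = 0.0048 in limma). Fnbp4, which has WW domains, had 20.3 and 19.5 scaled TPM in 2D and 31.6 and 31.1 in 3D culture (log2 fold change 0.63, adjusted p = 0.0041 in limma).

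The SR-related list held the genes of large serine- and arginine-rich nuclear proteins and of the kinases that phosphorylate SR proteins. Of 26 tested, 12 were higher (46.2%, against 18.5% of all genes) and 1, Tra2a, was lower (3.85%), with a median log2 fold change of 0.14. Srrm2, a large scaffold of nuclear speckles, had 73.6 and 64.0 scaled TPM in 2D and 111 and 107 in 3D culture (log2 fold change 0.66, adjusted p = 0.0055 in limma). Dyrk1a, a kinase of splicing factors and other proteins, had 19.7 and 18.7 scaled TPM in 2D and 26.2 and 27.0 in 3D culture (log2 fold change 0.45, adjusted p = 0.0072 in limma). The 25 tested genes of the exon junction complex and mRNA export gave 9 lower (36.0%) and 1 higher (4.0%), with a median of -0.10. Among all genes with a mean of at least 10 TPM, 25.4% were lower and 17.5% higher. The export helicases Ddx39a and Ddx39b, close paralogs whose reads may be divided uncertainly, differed in direction. Ddx39a had 77.2 and 76.0 scaled TPM in 2D and 51.8 and 54.1 in 3D culture (log2 fold change -0.53, adjusted p = 0.0046 in limma). Ddx39b had 241 and 260 scaled TPM in 2D and 323 and 322 in 3D culture (log2 fold change 0.37, adjusted p = 0.010 in limma), a call that was lost with only its most abundant transcript counted. Alyref, their export adaptor, had 145 and 158 scaled TPM in 2D and 110 and 110 in 3D culture (log2 fold change -0.46, adjusted p = 0.0065 in limma).

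Of 56 regulated and tissue-restricted splicing factors, 17 were higher (30.4%) and 11 were lower (19.6%), against 18.5% and 19.5% of all genes. The median log2 fold change was 0.07. Tia1, a U-rich RNA binding protein, had 12.6 and 12.5 scaled TPM in 2D and 22.9 and 20.6 in 3D culture (log2 fold change 0.74, adjusted p = 0.0044 in limma). The helicase gene Ddx17 had 304 and 297 scaled TPM in 2D and 434 and 419 in 3D culture (log2 fold change 0.50, adjusted p = 0.0047 in limma). The largest rise in these lists was that of Cirbp, a cold-inducible RNA binding protein, with 37.4 and 50.4 scaled TPM in 2D and 110 and 101 in 3D culture (log2 fold change 1.26, SE 0.14, limma adjusted p = 0.0050). Its relative Rbm3 was also higher, with 400.0 and 428 scaled TPM in 2D and 582 and 518 in 3D culture (log2 fold change 0.41, adjusted p = 0.015 in limma). Cirbp, Rbm3 and the following genes were chosen after their values were seen. Ptbp2 and Ptbp3, paralogs of the polypyrimidine tract repressor, had log2 fold changes of 0.48 and 0.85 and were higher, as was the neuronal splicing factor gene Rbfox3 (0.82), at a low level. Its paralog Rbfox1, counted among the 17, had 0.441 and 0.490 scaled TPM in 2D and 2.14 and 1.29 in 3D culture and reached the mean of 1 TPM only through the 3D group, so its call is not read as a result. Ybx1 (-0.45), Khdrbs3 (-0.47) and Tardbp (-0.38) were lower.

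**Figure D5:**
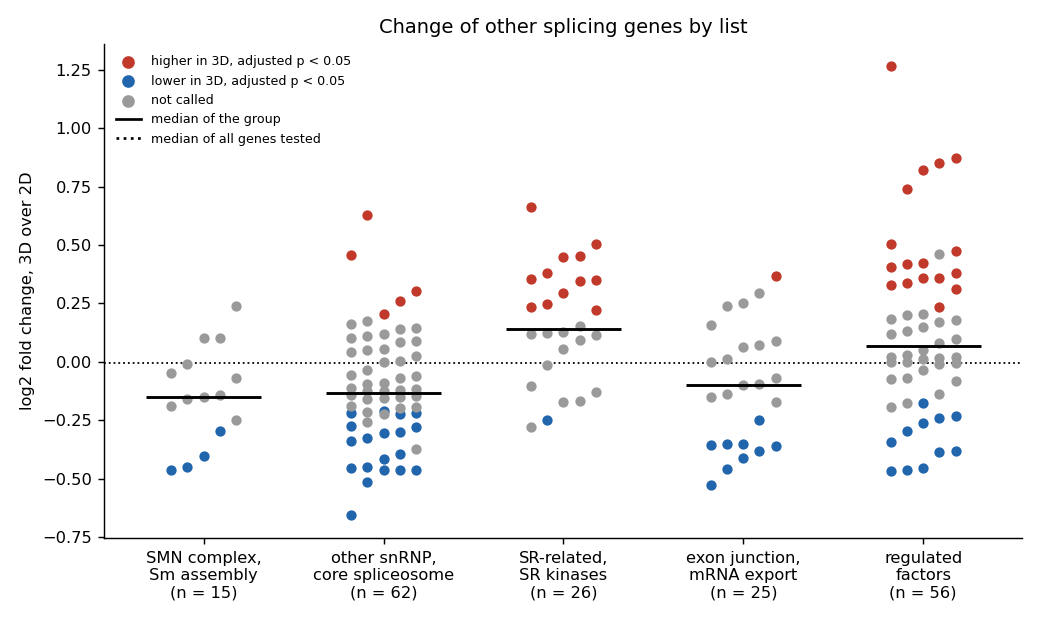
Log2 fold change (3D over 2D, vertical axis) of tested splicing genes outside the symbol rule in 5 lists, with 1 point per gene coloured by the limma call, a solid bar at the list median and a dotted line at the median of all genes tested. The SR-related list has 12 genes higher and 1 lower, and the exon junction and export list has 1 higher and 9 lower.

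Most genes of a proliferation list were also lower in 3D culture. Of 22 genes of the cell cycle and of the Myc network, 16 were lower (72.7%) and 1 was higher (4.55%), with a median log2 fold change of -0.37. Over all genes 19.5% were lower and 18.5% higher, or 25.4% and 17.5% at a mean of at least 10 TPM. Mcm3, a replication helicase subunit, had 56.6 and 57.1 scaled TPM in 2D and 36.3 and 37.6 in 3D culture (log2 fold change -0.61, adjusted p = 0.0041 in limma). Cdk1 had 151 and 157 scaled TPM in 2D and 103 and 106 in 3D culture (log2 fold change -0.55, adjusted p = 0.0043 in limma). Both were lower in both 3D cultures, and the groups did not overlap in 75.5% of all genes tested. Myc was the gene that was higher, with 46.3 and 46.1 scaled TPM in 2D and 74.8 and 63.9 in 3D culture (log2 fold change 0.57, adjusted p = 0.0081 in limma). The summed scaled TPM of the list was 1675 and 1686 in 2D and 1317 and 1318 in 3D culture. The part of these differences in the levels of the splicing genes was not tested.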

How the data were processed

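PolyA RNA of 4 INS-1 832/3 cultures was sequenced as stranded libraries. The authors quantified 75-base single-end reads per transcript with Salmon 1.2 against rn4 plus the human insulin gene, after FastQC 0.11.8, and deposited TPM values, each sample summing to 1000000. The TPM are written with decimal commas. TPM keep no sequencing depth, so no counting error is given, and the DESeq2 test of the authors was not repeated because it needs counts.

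TPM were summed per symbol, genes with a mean of at least 1 TPM were kept, samples were aligned with unweighted TMM factors (trimming 30% of the M values and 5% of the A values on either side, factors from 0.960 to 1.02), and log2(scaled TPM + 1) entered limma 3.58.1 in R 4.3.3, with empirical Bayes moderation that follows an intensity trend and a threshold of 0.05 on the adjusted p. The steps were tested on simulated data with far fewer changed genes than were called here, which does not measure the error rate of these calls. No pair of samples held identical values. Sums and ratios were compared by exact permutation tests.

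The members and lists were chosen with earlier results of these data known. Genes named were, per subfamily, the 3 with the smallest p, the most abundant, the largest rise and fall and up to 2 called against the majority, plus Snrpn and Snrpb, the member nearest the threshold, the 2 with the smallest p of each list, and members with transcripts in opposite directions. Genes outside this rule were named after their values were seen. Alternatives were the scaling, filter, pseudocount, trend, gene summary, stricter threshold, replicate block and each culture left out. Promoter windows came from RefSeq (GRCr8), whose coordinates differ from those of rn4.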

Additional observations from a re-analysis of the deposited data

How the results depend on the processing

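None of the 38 called genes changed sign in the 12 alternative fits, but none of the 38 passed the threshold in all 12. With a culture left out the sign of these genes could not change, because their groups did not overlap. At an adjusted p below 0.01, 5 members were higher and 7 lower. No share over all genes at this threshold is set beside these counts, so they are not read as particular to the members. When each culture was left out in turn, with the lone culture of a group assumed to vary like the others, the number of higher members ranged from 0 to 10 and of lower members from 0 to 28. For the other splicing lists these numbers ranged from 0 to 35 higher and from 0 to 49 lower, and for transcripts of members from 0 to 12 higher and from 0 to 18 lower. Each of these fits had 1 culture fewer, and the cause was otherwise not tested.

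Without scaling, the median log2 fold change was -0.0665 over all members, 0.104 for Srsf, -0.0635 for Hnrnp, -0.0607 for Sf3 and 0.0795 for Prpf. In that fit 13 members were higher and 23 lower, and 4070 of all 11960 genes passed, against 4541 with scaling. With cultures left out in turn, the medians ranged from -0.14 to -0.12 for all members, -0.42 to -0.28 for Snrp, -0.40 to -0.28 for Lsm, 0.0274 to 0.145 for Srsf, -0.136 to -0.0644 for Hnrnp, -0.115 to -0.0543 for Sf3 and 0.00262 to 0.0712 for Prpf. The log2 ratio of the Prpf sums, -0.02 as reported, reversed to 0.0273 without scaling and ranged from -0.0480 to 0.0157 with cultures left out. Of the 38 members that did not pass the test, 10 changed sign in at least 1 fit, and 10 passed in at least 1 fit. Hnrnpc ranged up to 0.0289, Lsm11 to 0.0259, Lsm14b to 0.102, Srsf4 to 0.0417 and Srsf10 to 0.145, and Hnrnpu ranged down to -0.0296 and Sf3b4 to -0.0241, while Sf3b6 reversed to 0.00876 without replicate 2 of the 2D group, Prpf19 to 0.000526 without replicate 2 of the 3D group, and Srsf12 ranged from -0.0439 to 0.178 with cultures left out.

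The groups share replicate numbers, and the deviations of same-numbered cultures had a correlation of -0.006 across 11960 genes. With so few cultures, this correlation cannot decide whether same-numbered cultures were handled together. With the replicate number as a block, 10 members were higher and 23 lower, and 4814 of all genes passed, against 4541 without the block.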
